A study of Oryza sativa with 6 samples.

Results

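Na+-specific IP-G4s of at least 400 bp are the long end of a list of rice loci. At these loci the BG4 antibody enriched DNA reproducibly after folding in NaCl, but not reproducibly after folding in KCl. The members were chosen by their measured length, as the rows of the Na+-specific list whose end minus start was at least 400 bp, and 525 of its 8784 rows met this rule. Both lists of specific IP-G4s together hold 25509 rows, of which 16725 are K+-specific. Genomic DNA of wild type japonica rice seedlings, cross-linked with formaldehyde and fragmented, was denatured and refolded with the crowding agent PEG200 and either NaCl (Na+PEG) or KCl (K+PEG), and was then immunoprecipitated with BG4. The buffers for antibody binding and washing contained KCl in both conditions, so that the cations differed at the refolding step only. Each condition had 2 biological replicates, and 2 input libraries without immunoprecipitation served the authors as control. The antibody acted on purified DNA, so the loci are those able to fold in vitro, and they do not show folding in the plant.

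A G-quadruplex (G4) is a four-stranded structure in which guanines of separate runs pair in planar G-quartets stacked on each other. A monovalent cation sits in the central channel between the quartets, where K+ usually stabilizes the stack more than Na+. BG4 is a single-chain antibody that binds folded G4s of many topologies, and a peak covers the fragments that carry one or several of them, so its width depends on fragment size and signal as well as on the structure. As 1 example of each class, the oligos that the authors synthesized for 1 Na+-specific and 1 K+-specific locus are printed 5′ to 3′, with runs of at least 3 guanines in capitals.
Na+-specific oligo: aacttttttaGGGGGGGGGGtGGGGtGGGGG
K+-specific oligo: GGGcggctGGGaggccGGGGtGGGGGG
The Na+-specific oligo is 31 nt long with 3 such runs, the longest of 10 guanines, whereas the K+-specific oligo is 27 nt long with 4 runs, the longest of 6 guanines. A single oligo does not describe its class. In the study's circular dichroism spectra, the Na+-specific sequence had a similar amplitude in Na+ and in K+. Its BG4 signal on dot blots was stronger in NaCl with PEG200 than in KCl with PEG200. The list of oligos pairs names with sequences and holds no positions, so whether the Na+-specific one lies in a long IP-G4 is not known.

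The word specific needs a limit before any result. The authors called peaks in each library separately, kept the segments shared by both replicates of a condition, and took as Na+-specific those that met no shared segment of K+PEG. A row can therefore lie under a peak of a single K+PEG library, and its length is that of the overlap of both Na+PEG peaks, never more than the shorter of them. The lists used here for single libraries cover the first 5.86 Mb of chromosome 1 (MSU v7.0 build), where they hold 803 and 630 peaks for Na+PEG replicates 1 and 2, and 748 and 871 peaks for K+PEG replicates 1 and 2. Read depth is not part of these files, but in the study's summary of sequencing K+PEG replicate 1 had the fewest uniquely mapped reads of the immunoprecipitated libraries. Na+PEG replicate 2 had only slightly more.

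The long Na+-specific IP-G4s had a median length of 469 bp, with quartiles of 430 and 533 bp and a maximum of 1043 bp. They made up 5.98% of the Na+-specific list (95% Wilson interval 5.50 to 6.49, which covers counting error only). In the K+-specific list, 2931 rows (17.5%, 16.96 to 18.11) reached the same length, and the share was higher in the K+-specific list on 12 of 12 chromosomes. Within the long IP-G4s, 337 were of 400 to under 500 bp, 134 of 500 to under 600 bp, 47 of 600 to under 800 bp and 7 of at least 800 bp, so that 64.2% lay within 100 bp of the limit. Among K+-specific rows of at least 400 bp, 48.3% lay within the same 100 bp and 201 were of at least 800 bp. The limit did not fall at a gap in the lengths. There were 8 rows of exactly 400 bp and 7 of 399 bp, and the 42 rows in the first 10 bp from the limit upwards lay a median of 5745 bp from the nearest K+-specific row, against 5721 bp for the 44 rows up to 10 bp below it.

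The 10 longest Na+-specific IP-G4s were spread over 7 chromosomes and measured 762 to 1043 bp. The longest lay on chromosome 4 from 28953398 to 28954440 (1043 bp), 2207 bp from a K+-specific row of 232 bp and 3142 bp from another Na+-specific row. On chromosome 5, the rows from 28376717 to 28377651 (935 bp) and from 10063290 to 10064219 (930 bp) had no other Na+-specific row within 50 kb, but lay 2779 and 1282 bp from K+-specific rows. The row on chromosome 10 from 10107754 to 10108602 (849 bp) had the same arrangement, with a gap of 53402 bp to the nearest Na+-specific row and 2342 bp to a K+-specific one. On chromosome 1, the row from 21487731 to 21488607 (877 bp) lay 301 bp from a K+-specific row. Of these 10, 8 had a K+-specific row as the nearer neighbour, and 3 had one within 1 kb. Over all 525 long rows, the nearer neighbour was Na+-specific for 36.4%, and 15.6% had a K+-specific row within 1 kb. For all Na+-specific rows these shares were 38.3% and 13.6%, and Na+-specific rows are 34.4% of both lists together. The exceptions among the 10 were on chromosomes 10 and 11. The row on chromosome 10 from 9523535 to 9524314 (780 bp) had a Na+-specific row at 316 bp and a K+-specific row at 769 bp. The row on chromosome 11 from 11267445 to 11268206 (762 bp) had a Na+-specific row at 121 bp and the nearest K+-specific row at 12329 bp. The 10 were picked by length alone, and no test was made on them.

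To see whether long Na+-specific IP-G4s prefer particular chromosomes, their number was set against all Na+-specific rows of the same chromosome and against the 4886 rows of 200 to 300 bp. Chromosome 1 held the most, with 64 (12.2% of all long rows, 9.66 to 15.3), followed by 62 on chromosome 4, 56 on chromosome 5, 48 on chromosome 12, 46 on chromosome 11 and 45 on chromosome 8. Chromosomes 2 and 3 held 41 each, chromosome 6 held 32, chromosomes 7 and 10 held 31 each, and chromosome 9 held 28. Relative to the Na+-specific rows present, the share of long ones was highest on chromosome 5, at 7.61% (5.91 to 9.75), and lowest on chromosome 6, at 4.50% (3.21 to 6.28). These intervals overlap. Over the 12 chromosomes the share averaged 5.93% ± 1.06 (SD) for long rows and 55.7% ± 2.04 (SD) for rows of 200 to 300 bp. The long class thus varied more in proportion to its level, although its counts per chromosome were also smaller. Per 100 rows of 200 to 300 bp, there were 14 long ones on chromosome 5 and 7.82 on chromosome 6, a ratio of 1.79 (1.13 to 2.82, counting error only). These were the highest and lowest of 12 chromosomes, picked after their values were seen, which widens such a ratio. The extremes also moved with the length limit: at 350 bp or more the highest was chromosome 12 and the lowest chromosome 3 (ratio 1.52, 1.07 to 2.16), and at 500 bp or more the highest was chromosome 5 and the lowest chromosome 7 (ratio 2.32, 1.05 to 5.09).

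**Figure D1:**
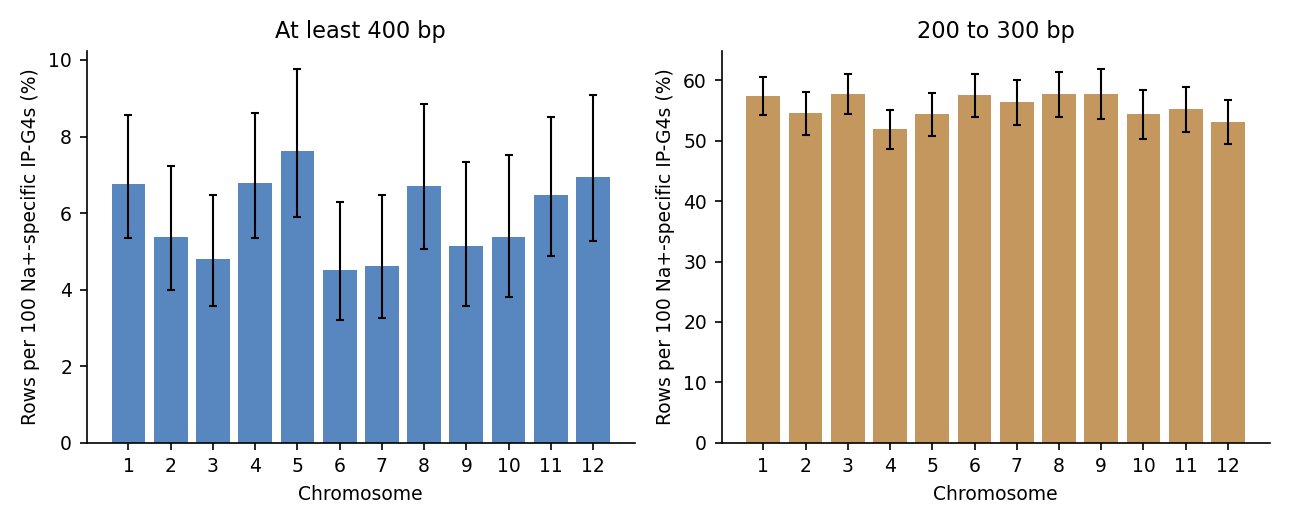
Share of Na+-specific IP-G4s that are at least 400 bp long (left) or 200 to 300 bp long (right) on each of the 12 chromosomes, in percent of all Na+-specific IP-G4s there; bars start at 0 and lines are 95% Wilson intervals. The long class runs from 4.50% on chromosome 6 to 7.61% on chromosome 5, and the 200 to 300 bp class from 51.9% on chromosome 4 to 57.7% on chromosome 3.

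Per unit of length, with each chromosome taken to its last specific IP-G4, there were 1.87 long rows per Mb on chromosome 5, 1.75 on chromosome 4 and 1.74 on chromosome 12, against 1.02 on chromosome 6 and 1.04 on chromosome 7. Rows of 200 to 300 bp ran from 11.5 per Mb on chromosome 2 to 13.7 per Mb on chromosome 9. This narrower range in proportion is not read as a trait of either class, since the long rows are far fewer and their counting error is larger in proportion. Across the 12 chromosomes, the share of long rows among Na+-specific IP-G4s and the share of rows of at least 400 bp among K+-specific ones had a Pearson's r of 0.50 and a Spearman's rho of 0.54. Both were lowest on chromosome 6, and the 2 lists come from the same libraries and genome, so the coefficients describe these lists only.

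Long Na+-specific IP-G4s lay closer to K+-specific IP-G4s than the rows of 200 to 300 bp did. The median edge-to-edge gap to the nearest K+-specific row was 5898 bp for long rows (quartiles 1618 and 14387 bp) and 7558.5 bp for rows of 200 to 300 bp (quartiles 2581.5 and 16328 bp). The median was lower for the long rows on 12 of 12 chromosomes. The difference averaged -1793 bp ± 845 (SD over chromosomes), with the largest on chromosome 5, where the medians were 3145.5 bp for long rows and 6848.5 bp for rows of 200 to 300 bp, and the smallest on chromosome 4, where they were 6472 and 6874 bp. The distance between the quartiles within each class was larger than this difference. Rows of 200 to 300 bp had the largest median of the length classes. It was 6290 bp for rows under 200 bp and 6479.5 bp for rows over 300 and under 400 bp. A lower median than that of rows of 200 to 300 bp is thus not particular to long rows. Regions of one genome are not replicates, so no p-value is attached.

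**Figure D2:**
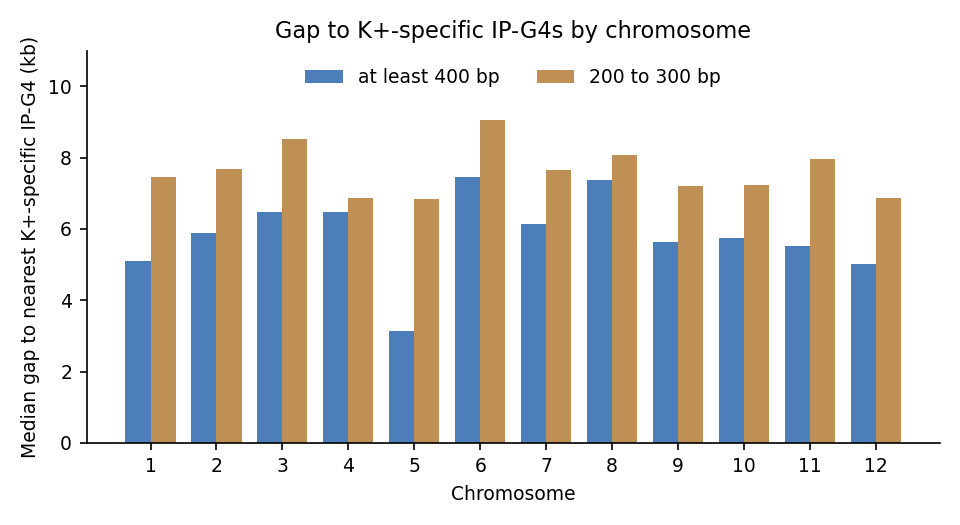
Median gap in kb between Na+-specific IP-G4s and the nearest K+-specific IP-G4 on each chromosome, for rows of at least 400 bp (left bar of each pair) and of 200 to 300 bp (right bar). The left bar is lower on all 12 chromosomes, and the pair on chromosome 5 differs most.

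The gap to K+-specific rows also differed among the long rows themselves. Its median was 6466 bp for the 337 rows of 400 to under 500 bp, 5545 bp for the 134 rows of 500 to under 600 bp and 2945 bp for the 54 rows of at least 600 bp. Outside the long class the order of the medians was not kept. Rows under 200 bp had a median of 6290 bp, below the 7558.5 bp of rows of 200 to 300 bp. It was also below the 6479.5 bp of rows over 300 and under 400 bp. The latter lay close to the 6466 bp of rows of 400 to under 500 bp. A K+-specific row lay within 1 kb of 82 long rows (15.6%, 12.8 to 18.97), against 12.2% (11.3 to 13.1) of rows of 200 to 300 bp. At this short range the direction was the same on only 7 of 12 chromosomes. Within 10 kb the shares were 63.6% (59.4 to 67.6) of long rows and 59.0% (57.6 to 60.3) of rows of 200 to 300 bp. Rows under 200 bp reached 16.3% within 1 kb and 62.4% within 10 kb, and rows over 300 and under 400 bp reached 14.0% and 63.0%, so in these shares the intervals of long rows overlap those of both other classes. The closest approach was on chromosome 11, where the long row from 15028265 to 15028678 (414 bp) lay 5 bp from a K+-specific row of 309 bp. The widest gap, 82916 bp, belonged to the row from 24341786 to 24342197 (412 bp) on chromosome 12.

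**Figure D3:**
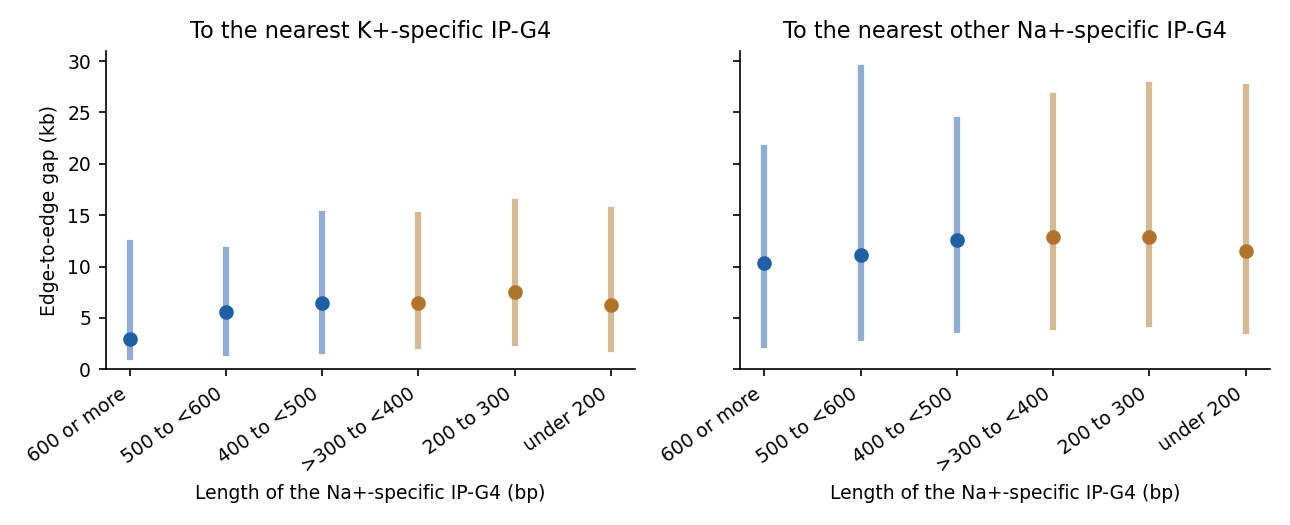
Gap in kb from Na+-specific IP-G4s of 6 length classes to the nearest K+-specific IP-G4 (left) and to the nearest other Na+-specific IP-G4 (right); points are medians and lines run from the lower to the upper quartile, in blue for rows of at least 400 bp. The median gap to K+-specific rows is 2945 bp at 600 bp or more and 7558.5 bp at 200 to 300 bp, and the quartile ranges overlap in every class.

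Towards their own kind, long Na+-specific IP-G4s were not clearly nearer than rows of 200 to 300 bp. The median gap to the nearest other Na+-specific row was 11844 bp for long rows (quartiles 3408 and 24730 bp) and 12872.5 bp for rows of 200 to 300 bp (quartiles 4445 and 27627 bp). The median was lower for long rows on 9 of 12 chromosomes, and the difference averaged -894 bp with an SD of 1865 bp over chromosomes, larger than the difference itself. It was largest on chromosome 11, where the medians were 7611 bp for long rows and 12596 bp for rows of 200 to 300 bp, and it had the opposite sign on chromosomes 4, 6 and 9. At very short range the shares differed more, though their intervals touch. Another Na+-specific row lay within 1 kb of 60 long rows (11.4%, 8.98 to 14.4) and of 8.51% (7.76 to 9.33) of rows of 200 to 300 bp, with the higher share in the long class on 11 of 12 chromosomes. Rows under 200 bp had 11.8% (10.5 to 13.2). Within 10 kb the shares were 42.9% for long rows and 43.3% for rows of 200 to 300 bp. The closest such neighbour lay 114 bp from the long row on chromosome 2 from 2588948 to 2589470 (523 bp) and was itself 12 bp long. The most remote long row, on chromosome 1 from 32742526 to 32742958 (433 bp), had no other Na+-specific row within 133343 bp.

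The nearest neighbours of long rows were long about as often as the list as a whole. The nearest other Na+-specific row was of at least 400 bp for 26 of the 525 long rows (4.95%, 3.40 to 7.16), against 6.06% (5.42 to 6.76) of rows of 200 to 300 bp and 5.98% of the list as a whole. No pair of long rows lay closer than 1000 bp, a gap found on chromosome 5 between the rows from 16130540 to 16130944 (405 bp) and from 16131945 to 16132384 (440 bp). At larger distances, another long row lay within 100 kb of 31.6% of long rows (27.8 to 35.7), whereas a long row lay within 100 kb of 25.9% (24.7 to 27.2) of rows of 200 to 300 bp. The nearest K+-specific row was of at least 400 bp for 18.7% of long rows (15.6 to 22.2) and for 16.9% (15.9 to 18.0) of rows of 200 to 300 bp, beside 17.5% of all K+-specific rows, and its median length was 253 bp and 260 bp in these classes. The intervals for long neighbours of either kind overlap between the classes, whereas those for a long row within 100 kb do not. A long row within 100 kb of another makes both count, and several rows of 200 to 300 bp can share 1 long row. The intervals treat rows as independent, so this separation does not measure a difference between the classes. Other measures of the same distance were mixed. The median gap to the nearest long row was 242815 bp for long rows and 234591 bp for rows of 200 to 300 bp. A long row lay within 1 kb of 0.381% (0.105 to 1.38) of long rows, only 2 rows, and of 0.696% (0.498 to 0.971) of rows of 200 to 300 bp. Within 10 kb the order was reversed, with 4.57% (3.09 to 6.71) and 3.42% (2.94 to 3.97), intervals that overlap. The lower quartile of this gap (76658 and 96762 bp) and its mean (355966 and 392743 bp) were also smaller for long rows. A general closeness of long rows to each other is thus not shown.

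In the order of both lists along the chromosome, 38.7% of long rows (34.6 to 42.9) and 39.6% of rows of 200 to 300 bp (38.3 to 41.0) stood between K+-specific rows on either side, and 13.7% and 14.3% stood between Na+-specific rows. The nearest specific IP-G4 of any kind was a Na+-specific one for 36.4% of long rows (32.4 to 40.6) and for 38.8% of rows of 200 to 300 bp (37.4 to 40.2), where Na+-specific rows are 34.4% of both lists together. Within 50 kb on either side, long rows had on average 4.98 K+-specific and 2.72 other Na+-specific rows, and rows of 200 to 300 bp had 4.70 and 2.54. The medians were 5 K+-specific and 2 other Na+-specific rows around long rows, and 4 and 2 around rows of 200 to 300 bp.

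To describe density along the chromosomes, the genome was cut into 379 windows of 1 Mb. A long row was present in 272 of them (71.8%), and rows of 200 to 300 bp in all 379. There were 118 windows with 1 long row, 85 with 2, 44 with 3, 22 with 4, 2 with 5 and 1 with 7. The window with the most was on chromosome 1 from 15000001 to 16000000, with 7 long rows among 36 Na+-specific and 59 K+-specific ones, of which 16 were Na+-specific rows of 200 to 300 bp. Its long rows measured 412 to 571 bp, and 5 of them had a K+-specific row within 10 kb. The closest pair there, from 15214252 to 15214822 (571 bp) and from 15218421 to 15218855 (435 bp), was 3598 bp apart, and each was the nearest Na+-specific row of the other. The windows with 5 were both on chromosome 11, from 21000001 to 22000000 and from 27000001 to 28000000. The 25 windows with at least 4 long rows held 20% of the long rows and 7.45% of the rows of 200 to 300 bp, but they were picked by their long rows and the first share is a description. They averaged 52.2 K+-specific rows, against 44.1 over all windows, while windows without a long row averaged 39.0. Na+-specific rows averaged 28.8 in these 25 windows, 23.2 over all windows and 19.9 in windows without a long row. These counts include the long rows that picked the windows, so part of the difference is fixed by the choice. Rows of 200 to 300 bp did not enter the choice. They averaged 14.6 in the 22 windows with 4 long rows, 13 in the 2 with 5 and 16 in the 1 with 7. Over all windows they averaged 12.9, and in windows without a long row 11.9, so the higher number was not only in K+-specific rows.

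Across the 379 windows, the number of long rows had a Spearman's rho of 0.16 with that of rows of 200 to 300 bp and of 0.30 with that of K+-specific rows (Pearson's r 0.17 and 0.29). Rows of 200 to 300 bp had a rho of 0.29 with K+-specific rows. The first of these depended on window size, at 0.12 with windows of 0.5 Mb and 0.33 with windows of 2 Mb, so no order is read from the coefficients. All windows come from the same libraries, and the last windows of chromosomes are shorter. The variance of the count per window was 1.10 times its mean for long rows and 1.40 times for rows of 200 to 300 bp. Consecutive long rows were separated by a median of 477 kb (quartiles 193 and 893 kb). The longest stretches without a long row lay on chromosome 2 from 2589471 to 7282665 (4.69 Mb), on chromosome 3 from 30969520 to 35587312 (4.62 Mb) and on chromosome 7 from 18736858 to 23344533 (4.61 Mb). They held 52, 56 and 54 rows of 200 to 300 bp and 172, 164 and 185 K+-specific rows, so none of them was empty of specific IP-G4s.

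When each chromosome was divided into 10 equal segments up to its last specific IP-G4, long rows were most frequent in the fourth and the fifth, with 13.3% (10.7 to 16.5) and 14.3% (11.6 to 17.5), where rows of 200 to 300 bp had 10.9% (10.1 to 11.8) and 10.7% (9.87 to 11.6). The last segment held the fewest long rows, 6.67% (4.83 to 9.13), against 9.03% (8.25 to 9.86) of rows of 200 to 300 bp. K+-specific rows had 12.5% and 11.6% in the fourth and the fifth and 8.31% in the last. In segment 6 the order turned, with 10.7% of long rows and 11.9% of rows of 200 to 300 bp. The segments pool chromosomes whose centromeres lie at different places and were not aligned to them.

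**Figure D4:**
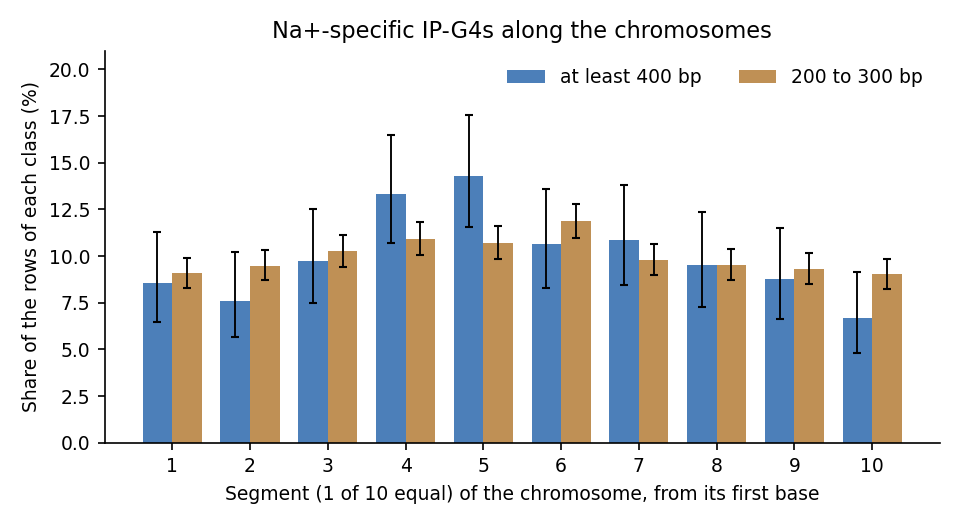
Share of long Na+-specific IP-G4s (left bar of each pair) and of those of 200 to 300 bp (right bar) in each of 10 equal segments of the chromosome, pooled over 12 chromosomes; lines are 95% Wilson intervals. The long class is at 13.3% and 14.3% in segments 4 and 5 and at 6.67% in segment 10.

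On the stretch of chromosome 1 where peaks of single libraries could be read, 3 of 121 Na+-specific rows were of at least 400 bp (2.48%, 0.847 to 7.04), an interval that includes the 5.98% of the whole list. The count was 0 without K+PEG replicate 1, 3 without K+PEG replicate 2, 27 without Na+PEG replicate 1 and 29 without Na+PEG replicate 2. Leaving out a library also drops the need for a segment shared by both replicates of its condition. Without a K+PEG library the count can then only fall or stay. Without a Na+PEG library the rows are whole peaks of a single library. These values therefore do not separate the weight of a library from the changed rule. Length and specificity went apart here. Of the 114 segments of at least 400 bp shared by both Na+PEG replicates, 3 were Na+-specific (2.63%, 0.899 to 7.45) and 111 overlapped a shared K+PEG segment. Of the 218 segments of 200 to 300 bp, 69 were Na+-specific (31.7%, 25.8 to 38.1). Over all 510 Na+PEG segments, 121 were Na+-specific (23.7%, 20.2 to 27.6). Among K+PEG segments of at least 400 bp, 26 of 180 were K+-specific (14.4%, 10.1 to 20.3), against 205 of all 587 (34.9%, 31.2 to 38.9). The share was thus lower among long segments in both conditions. A longer segment offers more bases for an overlap by construction, and how much of these differences that accounts for was not tested.

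All 3 long rows of this stretch lay under a peak of K+PEG replicate 2, and none under a peak of K+PEG replicate 1, so the share under any K+PEG peak was 100% (43.9 to 100) and 0% when replicate 2 was left out. For the 69 rows of 200 to 300 bp, 45 lay under a peak of K+PEG replicate 2, 12 under one of replicate 1 and 12 under neither. At the row from 1306509 to 1307038 (530 bp), fold enrichment over input was 4.45 and 4.47 in Na+PEG replicates 1 and 2 and 5.95 in K+PEG replicate 2, so the K+PEG library was the highest of the 3. Its K+PEG peak covered the whole row. At the row from 2262611 to 2263064 (454 bp), fold enrichment was 3.71 and 3.68 in the Na+PEG libraries and 3.19 in K+PEG replicate 2, whose peak covered 83.3% of the row. At the row from 3040822 to 3041275 (454 bp), it was 5.15 and 3.42 in the Na+PEG libraries and 4.55 in K+PEG replicate 2, whose peak covered 94.7%. In 2 of the 3 rows, then, K+PEG replicate 2 reached or passed at least 1 Na+PEG library in fold enrichment. All 3 rows are Na+-specific under the authors' rule because K+PEG replicate 1 had no called peak there. That library had the fewest uniquely mapped reads of the 4, but Na+PEG replicate 2 had only slightly more. The called peaks on this stretch were 748 in K+PEG replicate 1 and 630 in Na+PEG replicate 2. The part of read depth in the missing peaks was not tested.

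**Figure D5:**
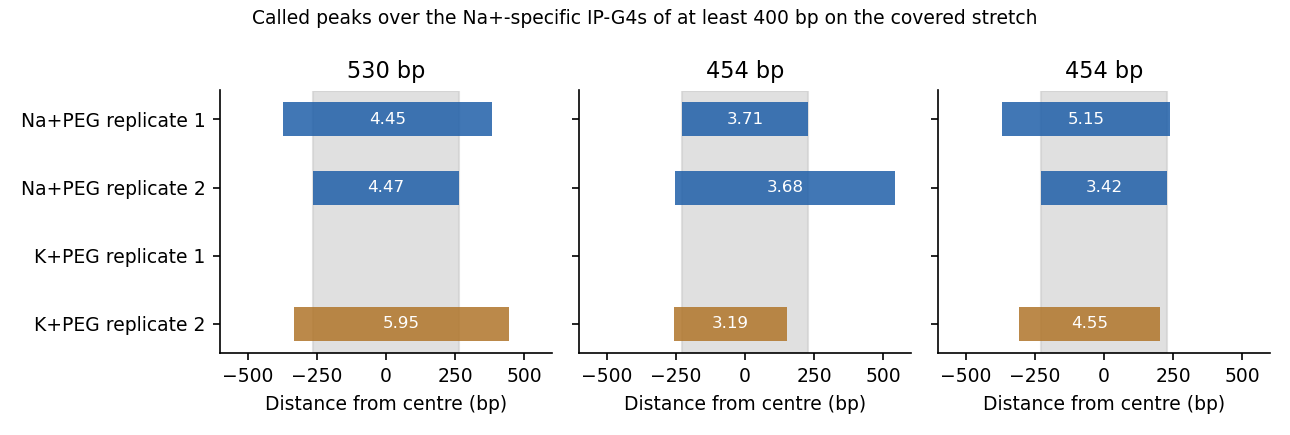
Called peaks of the 4 immunoprecipitated libraries (rows, Na+PEG in blue above K+PEG in brown) over the 3 Na+-specific IP-G4s of at least 400 bp on the covered stretch of chromosome 1; the axis is distance from the centre of the IP-G4 in bp, the grey band is the IP-G4, and the number in each bar is fold enrichment over input. K+PEG replicate 1 has no bar in any panel, and K+PEG replicate 2 has one in each.

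The strength of the Na+PEG peaks under these 3 rows within their lists depended on the replicate, and in replicate 2 also on the measure. Fold enrichment was above the list median of 3.52 in 3 of 3 rows in replicate 1, but above that of 3.77 in 1 of 3 rows in replicate 2. Their −log10 p-values, as the authors' peak caller gave them, were 15.2, 12.4 and 19.03 in replicate 1, against a median of 10.2 over its 803 peaks, and 10.6, 9.29 and 8.04 in replicate 2, against a median of 8.65 over its 630 peaks. Peaks under the 69 rows of 200 to 300 bp had medians of 9.36 and 7.70. Peak length and p-value come from the same signal, so these values are given as a description. The summits of the paired Na+PEG peaks lay 103, 8 and 133 bp apart, within each row. A row of 454 bp can come from a much longer peak, since replicate 2 had a peak of 799 bp over the second row where replicate 1 had one of 454 bp. Conversely, 15 of the 69 rows of 200 to 300 bp lay under a peak of at least 400 bp in 1 Na+PEG library, and none in both.

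Peaks of at least 400 bp were less frequent in the Na+PEG libraries before any intersection. On the covered stretch they made up 30.0% and 30.8% of called peaks in Na+PEG replicates 1 and 2, against 37.3% and 42.8% in K+PEG replicates 1 and 2, and the groups did not overlap. The mean share was 30.4% ± 0.552 under Na+PEG and 40.1% ± 3.91 under K+PEG (SD, n = 2 each), and the difference of -9.66 percentage points exceeded both SDs. A permutation test over libraries (exact, two-sided) gave p = 0.333, the lowest value open to 2 libraries against 2.

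Close neighbours on this stretch were also traced to their peaks. Of 3 pairs of consecutive Na+-specific rows within 1 kb, 1 lay under a single peak of a Na+PEG library, that is, 1 called peak gave both rows. The long row from 2262611 to 2263064 was in another of these pairs, 246 bp from a row of 323 bp, with separate peaks in both libraries. Of 16 pairs of a Na+-specific and a K+-specific row within 1 kb, 5 rested on Na+PEG and K+PEG peaks that overlapped each other, so that neighbouring rows of opposite type can share signal. Whether this holds for the 82 long rows with a K+-specific row within 1 kb elsewhere in the genome was not tested.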

How the data were processed

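Per the study's methods and the labels, reads were trimmed with Trim Galore, aligned to MSU v7.0 with BWA and cleared of PCR duplicates with SAMtools. The authors then called peaks per library with MACS against input at a p-value of 0.001. The deposited library lists give fold enrichment over input as a ratio, and p-values and q-values as −log10, all from the authors' peak caller. The deposited specific lists hold positions only. Library lists were used up to position 5855384 of chromosome 1, where rebuilding returned all 121 deposited Na+-specific rows, and incomplete last lines were left out. Gaps were measured edge to edge on the same chromosome, and overlaps counted from 1 shared bp. Members, lists and the length classes were chosen with earlier results of these data known. Regions named are the 10 longest, those with the smallest and largest gaps, those of the fullest 1 Mb window, all on the covered stretch, and the closest pair, which was chosen after its values were seen. Intervals are 95% Wilson intervals. Replicate numbers are not stated to mark a shared batch. Analyses used Python 3.11.15, numpy 2.4.6, scipy 1.17.1 and pandas 2.3.3, and set operations and gaps were tested on simulated data. Sequence content, genes and the input libraries were not analysed here, because no sequence or annotation of this build was used.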

Additional observations from a re-analysis of the deposited data

How the results depend on the processing

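Of 40 alternative values for 7 results, 34 stayed within the limits set for them and 6 moved. The limits were 1.5 times for a count, 1 SD for a value and the same side of the threshold for a test. The permutation test over libraries cannot give a p below 0.333, above the threshold of 0.05, so it could not change sides. The 34 also include the correlation of window counts at 2 Mb, with a rho of 0.33 against 0.16. The number 34 is therefore not a measure of robustness. All 6 values that moved concern the covered stretch of chromosome 1, where few rows are long. The number of long Na+-specific rows on that stretch was 3. It was 0 without K+PEG replicate 1, 3 without K+PEG replicate 2, 27 without Na+PEG replicate 1 and 29 without Na+PEG replicate 2. Leaving out a library also changes the rule, since its condition then needs no shared segment. The number was 23 when an overlap had to cover at least 50% of both peaks. With only the 50% of peaks that ranked best by p-value in each library, it was 13. The cause was not tested. The planned description of sequence and annotation, with its alternatives, was not run. The share of these rows under a K+PEG peak was 100% and became 0% without K+PEG replicate 2. The correlation of window counts between long rows and rows of 200 to 300 bp (rho 0.16) was 0.12 to 0.33 under the alternatives, and the ratio between the highest and lowest chromosome (1.79) was 1.52 to 2.32. The gap to the nearest K+-specific row differed by -1660.5 bp between long rows and rows of 200 to 300 bp, and by -1239 to -2107.5 bp under the alternatives. The gap to the nearest other Na+-specific row differed by -1028.5 bp, and by -546.5 to -1906 bp. The share of peaks of at least 400 bp differed by -6.90 to -12.4 percentage points with each library left out. With a replicate block the difference was again -9.66 percentage points, from -7.29 and -12.0 in the pairs, and 2 pairs cannot give a p below 0.5.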
